A study of Mus musculus with 5 samples.

Results

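The 34 protein-coding genes described here stood at 1 FPKM or more in both libraries of macrophages given LPS and were near silence in untreated macrophages, at no more than 0.3 FPKM in both control libraries. They are 34 of the 1489 genes in the deposited table, and they were selected on their measured values: besides these thresholds, the library of cells given LPS together with compound 13, here the treated library, had to hold at least 0.5 of the LPS model mean. Genes whose names begin with Ccl, Cxcl, Slc, Il1, Ifi, Oas, Gbp, Stfa or Mmp were left out, as were Nos2, Il6, Gm5483, Gm5416, S100a8 and genes annotated with sequence-specific transcription factor activity or with the mitochondrion, so the group holds what is left once the best-known inflammatory families are set aside. FPKM counts the fragments of a gene relative to its exon length and to the depth of the library, so it can be compared between genes of different length.

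Resting macrophages keep many inflammatory genes shut off and open them after contact with bacterial products. LPS, the lipopolysaccharide that coats Gram-negative bacteria, is bound with the help of CD14 and sensed by the receptor TLR4, which signals through the adaptors MyD88 and TRIF to NF-kB, AP-1 and the interferon regulatory factors. Early target genes are read by factors that already wait in the cell. Later ones need newly made proteins, among them interferon beta and cytokines that act back on the same cells, so after a day of exposure direct and secondary targets are mixed.

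RNA was measured in RAW264.7 cells, a mouse macrophage line transformed by Abelson leukemia virus, in 1 library of LPS with compound 13, 2 libraries of the LPS model and 2 libraries of the control, whose label names PBS. The study's cell model used 0.1 μg/ml LPS and 10 μM compound 13, a fungal metabolite, for 24 h. The doses are not restated for the sequenced cells, and the label of the treated library names no compound, so its identity comes from the methods of the study. No source used here says that the replicates were separate cultures, and the spread between them may be technical.

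Marker genes were checked against the labelled cell type. Of 12 macrophage markers the table lists 3, and their sum was 1451 FPKM with compound 13, 1417 and 1388 FPKM in the LPS model, and 708 and 755 FPKM in the control. Most of each sum was Cd14, at 1396 FPKM with compound 13, 1360 and 1331 in the LPS model, and 685 and 732 in the control. Itgam and Fcgr3 were also higher with LPS, so the sum mainly follows the rise of Cd14. The summed FPKM of the 3 of 7 epithelial markers listed was 0 with compound 13, 19.6 and 12.5 in the LPS model, and 0 in both control libraries. The 4 of 9 fibroblast and matrix markers summed to 0.0235 FPKM with compound 13, 3.95 and 2.72 FPKM in the LPS model, and 0.00819 and 0.0235 FPKM in the control, and the 3 of 5 endothelial markers to 0.275 FPKM with compound 13, 1.71 and 1.43 FPKM in the LPS model, and 0.0633 and 0.0279 FPKM in the control. Of 4 dendritic cell markers only Itgax is listed, at 7.15 FPKM with compound 13, 7.67 and 7.52 FPKM in the LPS model, and 1.28 and 1.02 FPKM in the control. Of 6 neutrophil markers only Csf3r is listed, at 0.243 FPKM with compound 13, 0.267 and 0.308 FPKM in the LPS model, and 1.02 and 1.2 FPKM in the control. Itgax was thus higher and Csf3r lower with LPS, with or without compound 13. Of 6 lymphocyte markers none is listed. A marker that is not listed may still be expressed, since the list holds mainly genes that differ between LPS model and control. Keratin and matrix transcripts were thus present in both LPS model libraries and at or near 0 in the other 3. These genes are markers of other cell types, and whether the LPS model libraries hold RNA of other cells was not tested. No LPS model library was free of these transcripts, so no comparison could be made without them.

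Low FPKM values were whole multiples of the value of 1 read, which gave depths of 16166000 to 17156000 reads per library and let every level be read as reads. At these depths 97.4% to 99.3% of low values came within 0.1 of a whole number of reads. The 34 members together took 4597 reads with compound 13, 5232 and 5091 reads in the LPS model, and 247 and 279 reads in the control. Per 1000000 reads of depth this was 268 with compound 13, 315 in both LPS model libraries, and 14.9 and 16.3 in the control. In the sum over the members the treated library lay below both LPS model libraries, and the limits of the rule place it above both control libraries. In bulk RNA, fewer cells that express a gene and less RNA per cell cannot be told apart.

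**Figure D1:**
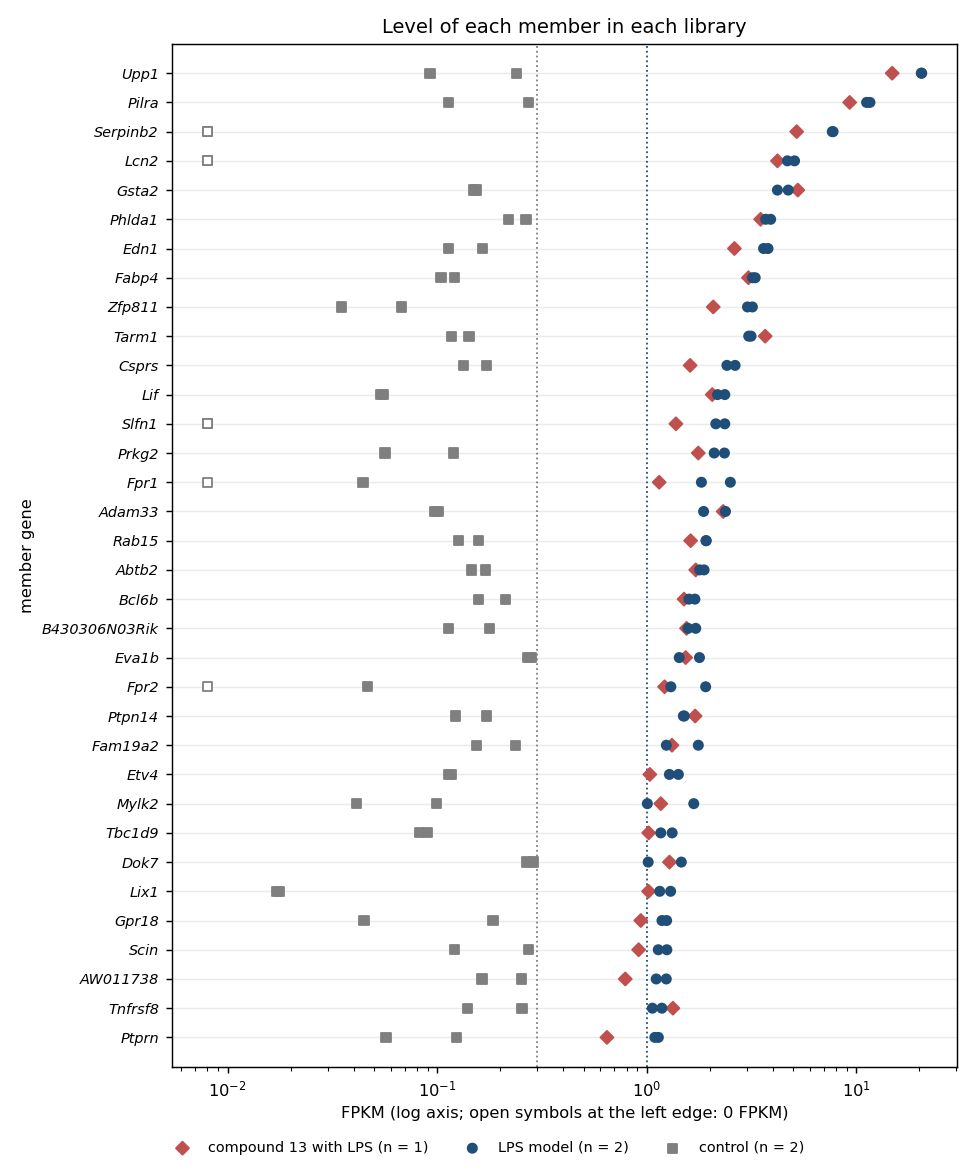
FPKM (log axis) of the 34 members in the library with compound 13 (diamonds), the 2 LPS model libraries (circles) and the 2 control libraries (squares, open at the left edge where the value is 0). Dotted lines mark the limits of the rule, 1 FPKM for the LPS model and 0.3 FPKM for control, and with LPS Upp1 and Pilra stand above all other members.

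Levels with LPS were low for most members. The mean of the LPS model libraries was under 2 FPKM for 18 members, 2 to under 5 FPKM for 13 and at least 5 FPKM for 3, namely Upp1, Pilra and Serpinb2. The LPS model libraries held 28 to 668 reads per member, and the control libraries at most 38. Upp1 and Pilra made up 28.0% of the summed FPKM of the members with compound 13 and 30.7% and 30.1% in the LPS model. Read ratios between LPS model and control, corrected for depth, were 100 or more for 3 members, 10 to under 100 for 24 and under 10 for 7, with a median of 17.8. This median places Serpinb2, Lcn2 and Slfn1, which had no control read, at their lower bounds against a floor of 3 reads over both control libraries. No counting error of the LPS model is in these bounds, and the exact intervals of the 3 ratios start at 165, 116 and 37.7.

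Limma, a linear model fitted across the 1053 genes that passed a filter at 1 FPKM, called all 34 members higher with LPS than in the control at an adjusted p under 0.05, where 72.7% of all tested genes were called higher, and the rule used this contrast. Their median log2(FPKM + 1) difference was 1.35, beside 0.96 for all tested genes. Such a difference understates the change of low genes. Between compound 13 with LPS and the LPS model, which the rule also used, limma called 1 member, Serpinb2, lower (7.22% of all tested genes) and 0 higher (0.380% of all tested genes). The lone treated library is assumed in this fit to vary like the others. Limma-voom on the recovered reads also called Serpinb2 lower and 0 members higher. Serpinb2 was not called with a pseudocount of 0.1, no filter, median of ratios rescaling, quantile normalization or a replicate block, nor when either LPS model library was left out. Its log2 difference was −0.49, and it ran from −0.57 with limma-voom to −0.33 with the median of ratios. Upp1 was called lower as well without control replicate 1 or without control replicate 2. Since the rule set limits in both contrasts, these counts are descriptions.

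Of the 5 secreted proteins and protease inhibitors, the treated library was below both LPS model libraries for 4 and between them for 1. The most abundant of these 5, Serpinb2, encodes plasminogen activator inhibitor 2, a serpin that blocks urokinase and is also kept inside the cell. Serpinb2 stood at 5.19 FPKM with compound 13, at 7.67 and 7.74 FPKM in the LPS model and at 0 FPKM in both control libraries, from 209, 299 and 294, and 0 and 0 reads. Against the floor of 3 control reads its LPS model level was 203-fold higher than in the control, and the exact 95% interval of the ratio starts at 165. The LPS model libraries stood at a ratio of 0.991 to each other, and the treated library lay below both. Its read ratio of compound 13 to LPS model was 0.673 (95% exact counting interval 0.572 to 0.79, which covers counting error only).

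Lcn2 encodes lipocalin 2, which binds bacterial siderophores and so withholds iron. Its level was 4.2 FPKM with compound 13, 4.69 and 5.07 FPKM in the LPS model and 0 FPKM in both control libraries. Against the floor of 3 control reads the LPS model was 144-fold higher, with an exact interval that starts at 116. The treated library lay just under the lower LPS model library, and the counting interval of its ratio of 0.862 reached 1.03. Edn1, the precursor of the vasoconstrictor endothelin 1, stood at 2.62 FPKM with compound 13, at 3.61 and 3.79 FPKM in the LPS model, and at 0.113 and 0.164 FPKM in the control. With a ratio of 0.708 (0.554 to 0.898), Edn1 was below both LPS model libraries by more than they differed. Lif, a cytokine of the interleukin 6 family, showed 2.05 FPKM with compound 13, 2.36 and 2.17 FPKM in the LPS model, and 0.0556 and 0.0539 FPKM in the control. Its ratio of 0.905 (0.742 to 1.1) placed the treated library just below the lower LPS model library, with an interval that included 1. Fam19a2, a chemokine-like protein of the TAFA family, had unequal LPS model replicates (1.42-fold), and the treated library lay between them.

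The 9 receptors and other surface proteins ranged widely with compound 13, with ratios of 0.53 to 1.19 and a median of 0.815. Pilra, an inhibitory receptor of myeloid cells with an immunoglobulin-like domain, was the second most abundant member. Its values were 9.29 FPKM with compound 13, 11.6 and 11.2 FPKM in the LPS model, and 0.274 and 0.114 FPKM in the control. The ratio of 0.814 (0.731 to 0.905) put it below both LPS model libraries. Tarm1, by contrast an activating receptor of myeloid cells, stood at 3.67 FPKM with compound 13, at 3.06 and 3.14 FPKM in the LPS model, and at 0.117 and 0.142 FPKM in the control. The treated library was the highest of the 5, but the interval of the ratio of 1.18 ran between 0.943 and 1.48. Pilra and Tarm1 thus differed in the side of the LPS model on which the treated library fell.

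Fpr1 and Fpr2 encode receptors for formylated bacterial peptides, which guide phagocytes towards bacteria. Their starts lie 3884 bases apart on chromosome 17, on opposite strands. Fpr1 had 1.15 FPKM with compound 13, 2.5 and 1.82 FPKM in the LPS model, and 0 and 0.0443 FPKM in the control. This was 26 reads with compound 13, 55 and 39 in the LPS model and 0 and 1 in the control. It had the lowest ratio of compound 13 to LPS model of all members, 0.528 (0.328 to 0.823), and its LPS model replicates differed 1.37-fold. Fpr2, a less abundant member named here for its place beside Fpr1, had 27 reads with compound 13, 28 and 40 in the LPS model, and 1 and 0 in the control. LPS to control read ratios of this pair rest on 1 control read each and were 96.7 (16.9 to 3859) for Fpr1 and 69.9 (12.1 to 2803) for Fpr2.

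Tnfrsf8 encodes CD30, a receptor of the tumor necrosis factor receptor family. Its values were 1.33 FPKM with compound 13, 1.06 and 1.18 FPKM in the LPS model, and 0.14 and 0.254 FPKM in the control. The ratio of 1.19 was the highest of all members, and its interval of 0.886 to 1.59 held 1. Adam33, a membrane-bound metalloprotease, stood at 2.31 FPKM with compound 13, between 1.87 and 2.37 FPKM in the LPS model, and at 0.101 and 0.0976 FPKM in the control. Ptprn encodes IA-2, a phosphatase-like protein of dense-core granules best known from neuroendocrine cells. It had 0.645 FPKM with compound 13, 1.09 and 1.14 FPKM in the LPS model, and 0.0569 and 0.124 FPKM in the control, and its ratio of 0.579 (0.409 to 0.808) was the second lowest. Gpr18, a G protein-coupled receptor, and B430306N03Rik, annotated in the table with an immunoglobulin V-set domain, were both below both LPS model libraries, with ratios of 0.764 and 0.948.

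Metabolism was represented by Upp1, Gsta2 and Fabp4, and the most abundant member was among them. Upp1 encodes uridine phosphorylase 1, which splits uridine into uracil and ribose 1-phosphate. It stood at 14.8 FPKM with compound 13, at 20.5 and 20.4 FPKM in the LPS model, and at 0.0924 and 0.239 FPKM in the control. The reads were 498 with compound 13, 668 and 647 in the LPS model, and 3 and 8 in the control, so the LPS model was 123-fold (68.5 to 247) higher than the control. With compound 13 the ratio was 0.724 (0.651 to 0.803), while the LPS model replicates were nearly equal.

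Gsta2, a glutathione S-transferase that detoxifies electrophiles, was above both LPS model libraries in the treated one. It stood at 5.25 FPKM with compound 13, at 4.2 and 4.73 FPKM in the LPS model, and at 0.154 and 0.149 FPKM in the control. The ratio of 1.18 had an interval of 0.915 to 1.51. Fabp4, a carrier of fatty acids in adipocytes and macrophages, had 3.05 FPKM with compound 13, 3.29 and 3.2 FPKM in the LPS model, and 0.121 and 0.104 FPKM in the control, and its ratio was 0.941 (0.802 to 1.1). The 3 genes of this group therefore lay below, above and just under the LPS model.

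Of 7 members of cell signalling, trafficking and the cytoskeleton, the treated library was below both LPS model libraries for 4, above both for 1 and between them for 2. Prkg2, a cyclic GMP-dependent protein kinase, stood at 1.76 FPKM with compound 13, at 2.35 and 2.1 FPKM in the LPS model, and at 0.0563 and 0.12 FPKM in the control, with a ratio of 0.792 (0.655 to 0.953). Ptpn14, a non-receptor tyrosine phosphatase, had 1.7 FPKM with compound 13, 1.51 and 1.49 FPKM in the LPS model, and 0.171 and 0.122 FPKM in the control. It was above both LPS model libraries, at a ratio of 1.13 (0.996 to 1.28). Mylk2, a myosin light chain kinase of skeletal muscle, had the least equal LPS model replicates of all members. It showed 1.17 FPKM with compound 13, 1.67 and 1.01 FPKM in the LPS model, and 0.041 and 0.0992 FPKM in the control. Dok7, an adaptor of the muscle-specific kinase MuSK, had 1.28 FPKM with compound 13, 1.02 and 1.46 FPKM in the LPS model, and 0.268 and 0.287 FPKM in the control. Its LPS to control read ratio of 4.45 (3.14 to 6.44) was the smallest of all members. The treated library lay between the LPS model libraries for both Mylk2 and Dok7. Rab15, a small GTPase of endosomes, Tbc1d9, which holds a domain of Rab GTPase-activating proteins, and Scin, which severs actin filaments, were below both LPS model libraries, with ratios of 0.767 to 0.843.

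All 4 members grouped as nuclear regulators with Slfn1 were below both LPS model libraries. Zfp811, a zinc finger protein with a KRAB domain, had 2.07 FPKM with compound 13, 3.19 and 3.02 FPKM in the LPS model, and 0.035 and 0.0677 FPKM in the control, with a ratio of 0.67 (0.543 to 0.823). Slfn1, a member of the Schlafen family that interferon induces in mouse cells, had 1.38 FPKM with compound 13, 2.13 and 2.36 FPKM in the LPS model, and 0 FPKM in both control libraries. For Slfn1 the LPS model was 47.0-fold higher than the floor of 3 control reads, with an exact interval that starts at 37.7. The ratio with compound 13 was 0.614 (0.427 to 0.867). Bcl6b and Etv4, which encode DNA-binding regulators but do not carry the transcription factor term by which genes were left out, had ratios of 0.917 (0.711 to 1.18) and 0.767 (0.55 to 1.06).

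The other 6 members are diverse or little described. Phlda1, a protein with a pleckstrin homology-like domain, stood at 3.49 FPKM with compound 13, at 3.69 and 3.9 FPKM in the LPS model, and at 0.219 and 0.265 FPKM in the control. Its ratio of 0.92 (0.742 to 1.14) was close to 1. Csprs, placed on the unlocalized scaffold GL456221.1, had 1.61 FPKM with compound 13, 2.64 and 2.41 FPKM in the LPS model, and 0.133 and 0.172 FPKM in the control. Csprs was below both LPS model libraries, at a ratio of 0.637 (0.484 to 0.83). Eva1b, a membrane protein, had 1.53 FPKM with compound 13, between 1.43 and 1.78 FPKM in the LPS model, and 0.28 and 0.271 FPKM in the control. AW011738, whose transcript the table also describes as a long non-coding RNA, had 0.789 FPKM with compound 13, 1.11 and 1.24 FPKM in the LPS model, and 0.163 and 0.253 FPKM in the control. The ratio of AW011738 was 0.673, with a wide interval of 0.408 to 1.07 from 25 reads in the treated library. Abtb2 and Lix1 had ratios of 0.934 and 0.831 and were below both LPS model libraries.

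Over all members the treated library was below both LPS model libraries for 25, above both for 4 (Gsta2, Tarm1, Ptpn14 and Tnfrsf8) and between them for 5. The share below both was 73.5%, beside 62.5% of all tested genes and 70.0% of the 766 tested genes that limma called higher with LPS. The median ratio of compound 13 to LPS model was 0.838 for the members, 0.928 for all tested genes and 0.911 for the 766 genes. The counting interval lay below 1 for 10 members and held 1 for 24. These intervals cover counting error only and were not computed for all tested genes, so no background share stands beside the 10. The limits of the rule set every member above the control with compound 13, and the lowest read ratio of compound 13 with LPS to control was 3.78. The summed epithelial, matrix and endothelial markers were lower with compound 13 than in both LPS model libraries too, and their part in these counts was not tested.

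These shares depended on how the libraries were scaled. The table lists 1489 genes only, nearly all different between LPS model and control, and rescaling by the median of ratios lowered the median log2 difference of all tested genes between LPS model and control by 0.96, on the log2(FPKM + 1) scale. This left that median at −7.8e-05. After this rescaling 16 members (47.1%) were below both LPS model libraries and 10 (29.4%) above, beside 31.2% and 51.8% of all tested genes. The median ratio was then 0.942 for the members and 1.04 for all tested genes. Relative to all tested genes the members' median ratio was 0.902 as deposited and also after this rescaling. The rescaling divides each library by a single factor, so this relative value could hardly change and is no separate result. After quantile normalization 12 members (35.3%) were below both and 14 (41.2%) above, beside 30.7% and 47.0% of all tested genes. The relative value was 0.988. The medians of the members and of all tested genes then nearly met. Both rescalings take most genes as unchanged between libraries, which this list does not meet for LPS. Which scaling suits the list was not tested.

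**Figure D2:**
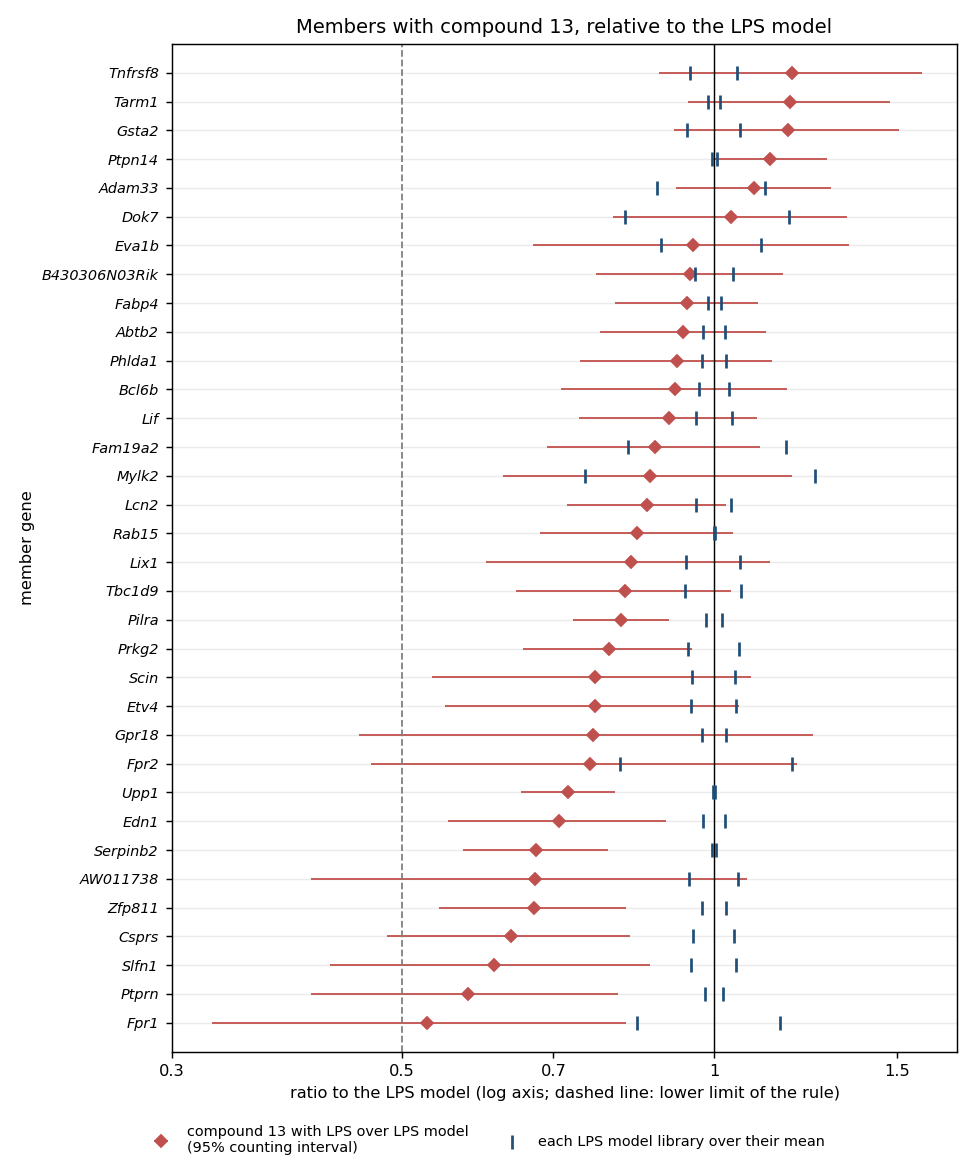
Ratio of compound 13 with LPS to the LPS model (log axis) for the 34 members, with 95% counting intervals (diamonds and lines) and each LPS model library over their mean (blue ticks). The dashed line is the limit of 0.5 set by the rule, and 25 diamonds lie left of both ticks.

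The condition on the treated library shaped the group. The table lists 1323 protein-coding genes, of which 400 were at no more than 0.3 FPKM in both control libraries, and 69 of these reached 1 FPKM in both LPS model libraries. For 23 of the 69 the treated library held under 0.5 of the LPS model mean, and 10 of these had 0 reads there. The 23 genes took 210 reads with compound 13, 2989 and 1973 reads in the LPS model, and 58 and 68 reads in the control. They include Krt8, Krt18 and Krt19, keratins of simple epithelia, which had 0 reads with compound 13, 593 and 364 reads together in the LPS model and 0 in both control libraries. The sums of the 23 genes thus differed 1.51-fold between the LPS model libraries, and those of the members 1.03-fold. A further 12 genes met all 3 limits but belong to the families or terms left out, Ccl7, Cxcl3, Gstp3, Il1a, Il1b, Il1f6, Il1f9, Mmp12, Mmp9, Nos2, Slc39a4 and Slc6a4.

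**Figure D3:**
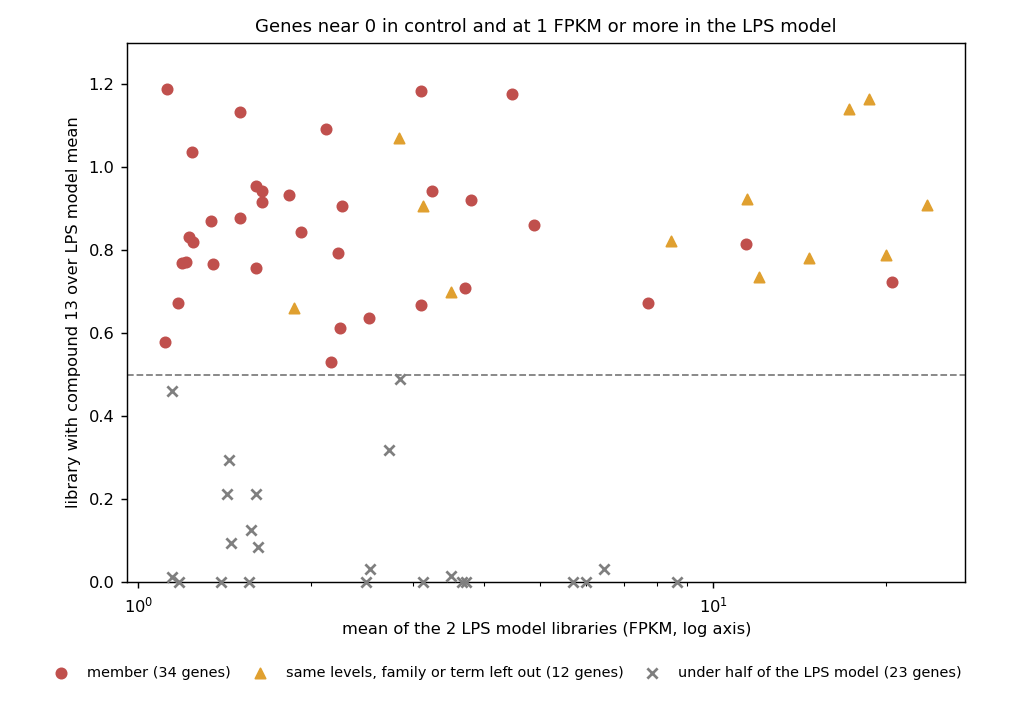
Ratio of the library with compound 13 to the LPS model mean against that mean (FPKM, log axis) for the 69 protein-coding genes that met the control and LPS thresholds. The 34 members (circles) and 12 genes of families left out (triangles) lie above the dashed limit of 0.5, and the 23 other genes (crosses) lie below it, 10 of them at 0.

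Members lay close to the limits on several sides. At the control limit of 0.3 FPKM, the higher control value was 0.287 for Dok7, 0.28 for Eva1b and 0.274 for Pilra inside it, and 0.32 for Hbegf, 0.35 for Spred3 and 0.397 for Ddx60 outside it. At the LPS model limit of 1 FPKM, the lower value was 1.01 for Mylk2, 1.02 for Dok7 and 1.06 for Tnfrsf8 inside it, and 0.991 for Flrt3, 0.98 for Gm4070 and 0.98 for Wdr66 outside it. At the limit of 0.5 on the treated library, the ratio of FPKM values was 0.53 for Fpr1, 0.579 for Ptprn and 0.613 for Slfn1 inside it, and 0.462 for Glipr2, 0.318 for Tm4sf1 and 0.296 for Cpe outside it among genes of no excluded family. Values thus lay closer together around the control and LPS model limits than around the limit on the treated library.

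The genes just outside the limits are given with their levels in each library. Hbegf, a growth factor of the epidermal growth factor family, had 1.77 FPKM with compound 13, 2.29 and 1.88 FPKM in the LPS model, and 0.305 and 0.32 FPKM in the control. Spred3, a relative of the Sprouty inhibitors of Ras signalling, had 1.64 FPKM with compound 13, 1.71 and 1.62 FPKM in the LPS model, and 0.35 and 0.31 FPKM in the control. Ddx60, an interferon-induced helicase, had 0.974 FPKM with compound 13, 1.36 and 1.45 FPKM in the LPS model, and 0.32 and 0.397 FPKM in the control. Of these 3, Hbegf and Ddx60 lay below both LPS model libraries with compound 13 and Spred3 between them. Flrt3, a leucine-rich repeat membrane protein, had 0.695 FPKM with compound 13, 0.991 and 1.42 FPKM in the LPS model, and 0.0373 and 0.0362 FPKM in the control. Gm4070 had 0.692 FPKM with compound 13, 1.08 and 0.98 FPKM in the LPS model, and 0.293 and 0.271 FPKM in the control. Wdr66, a protein with WD repeats, had 1.07 FPKM with compound 13, 1.22 and 0.98 FPKM in the LPS model, and 0.0944 and 0.189 FPKM in the control. Flrt3 and Gm4070 were lower with compound 13 than in both LPS model libraries, and Wdr66 lay between them. Glipr2 had 0.528 FPKM with compound 13, 1.22 and 1.07 FPKM in the LPS model, and 0.234 and 0.101 FPKM in the control. Tm4sf1, a tetraspan membrane protein, had 0.869 FPKM with compound 13, 3.47 and 1.99 FPKM in the LPS model, and 0.0726 and 0.0422 FPKM in the control. Cpe, a carboxypeptidase that trims peptide hormones, had 0.425 FPKM with compound 13, 1.59 and 1.28 FPKM in the LPS model, and 0.185 and 0.135 FPKM in the control. With compound 13 all 3 were below both LPS model libraries and above both control libraries.

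The receptor-proximal genes of the TLR4 pathway give a reference for the LPS response. The table lists 15 of 43 such genes, none of them a member, and limma called all 15 higher with LPS than in the control (72.7% of all tested genes), with a median log2 difference of 1.43. With compound 13, 1 of the 15 was called lower than in the LPS model, a share near the 7.22% of all tested genes, and 0 higher. The 1 gene was Irf7, an interferon regulatory factor, at 82.9 FPKM with compound 13, 116 and 123 FPKM in the LPS model, and 8.25 and 9.01 FPKM in the control (log2 difference −0.52, SE 0.07, limma adjusted p = 0.0267). The call was lost with median of ratios rescaling (log2 difference −0.35, adjusted p = 0.085), with quantile normalization (−0.46, 0.0746) and when either LPS model library was left out (−0.56 and 0.17 without replicate 1, −0.48 and 0.209 without replicate 2), and over all alternatives the adjusted p ran from 0.00274 to 0.209. The median log2 difference of the 15 was −0.10, beside −0.15 for the members and −0.08 for all tested genes.

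Sequence was not part of the rule. RefSeq promoter windows of the build GRCm38.p6, with 250 bases before and 50 bases after a gene's start, were found for 26 of the 34 members, 1 of them by a synonym, and 20 of these starts lie within 100 bases of the start in the table. In these windows 7 motifs were searched on both strands: the kB motif of NF-kB, the core GAAANNGAA of the interferon-stimulated response element (ISRE), TTCNNNGAA of STAT factors (GAS), TGACTCA of AP-1, TGACGTCA of cyclic AMP response element-binding proteins (CRE), TTGCNNAA of C/EBP factors and the TATA box TATAAA. A match is a description of letters and not a binding site.

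The ISRE core was in 6 of 26 member promoters (23.1%), beside 13.2% of 1012 promoters of listed protein-coding genes and 8.56% of all 32851 promoters. The 6 were AW011738, B430306N03Rik, Edn1, Gpr18, Pilra and Tarm1. The kB motif was in 4 (15.4%, beside 13.1% and 8.46%), namely Dok7, Lif, Slfn1 and Tnfrsf8, and AP-1 was in 3 (11.5%, beside 7.51% and 5.20%), namely Lif, Tnfrsf8 and Upp1. TATA was in 5 (19.2%, beside 13.1% and 13.6%), C/EBP in 3 (11.5%, beside 11.6% and 10.8%), GAS in 2 (7.69%, beside 7.91% and 8.30%) and CRE in 0 (beside 2.27% and 1.79%). In 10 of the 26 none of the 7 motifs was found. With 26 promoters a single promoter moves a share by several percentage points.

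**Figure D4:**
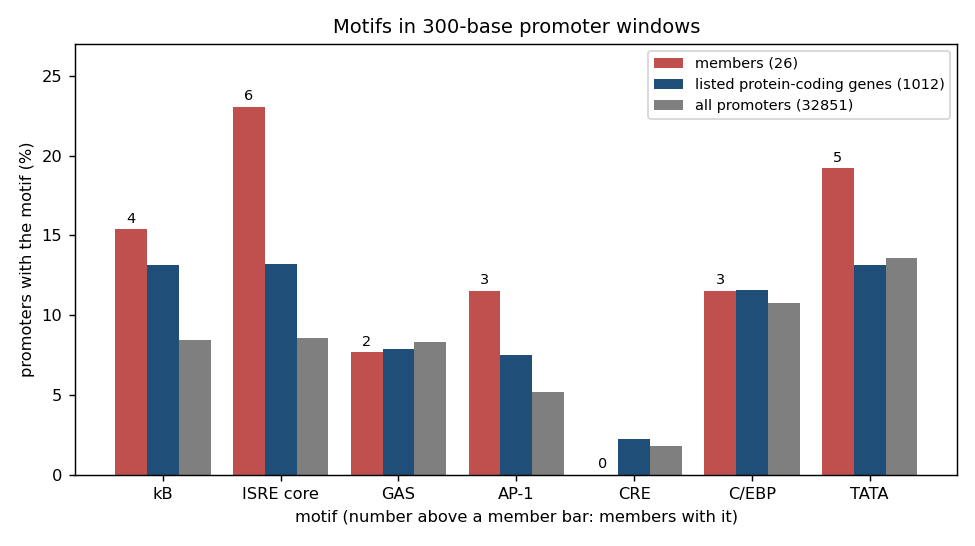
Share of promoter windows (%) that hold each of 7 motifs, for the 26 members with a window, 1012 listed protein-coding genes and all 32851 promoters. Numbers above the member bars count members, of which 6 hold the ISRE core and 4 the kB motif.

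The 250 bases before the start are shown for 5 members with at least 2 distinct motifs each, since they show letters of elements known from LPS-induced genes, with the motif letters in capitals and the sequence read 5′ to 3′ on the gene's own strand. Serpinb2 (chr1:107511173-107511422, plus strand) holds a C/EBP motif 202 bases and a TATA box 29 bases before the start, and a GAS motif 10 bases after it that is not shown. Pilra (chr5:137836279-137836528, minus strand) holds the ISRE core at 178 bases and C/EBP at 35 bases before the start. Tarm1 (chr7:3502625-3502874, minus strand) holds TATA at 133 and, as TTTATA on this strand, at 31 bases, with the ISRE core at 71 bases between them. Lif (chr11:4257318-4257567, plus strand) holds AP-1 at 228 and kB at 178 bases, and Tnfrsf8 (chr4:145315165-145315414, minus strand) holds 2 overlapping kB matches from 168 bases and AP-1, written TGAGTCA on this strand, at 132 bases before the start.
Serpinb2: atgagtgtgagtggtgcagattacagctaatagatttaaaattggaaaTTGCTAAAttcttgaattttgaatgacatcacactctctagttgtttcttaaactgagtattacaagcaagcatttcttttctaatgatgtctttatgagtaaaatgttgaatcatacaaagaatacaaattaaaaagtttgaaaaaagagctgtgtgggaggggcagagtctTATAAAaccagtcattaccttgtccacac
Pilra: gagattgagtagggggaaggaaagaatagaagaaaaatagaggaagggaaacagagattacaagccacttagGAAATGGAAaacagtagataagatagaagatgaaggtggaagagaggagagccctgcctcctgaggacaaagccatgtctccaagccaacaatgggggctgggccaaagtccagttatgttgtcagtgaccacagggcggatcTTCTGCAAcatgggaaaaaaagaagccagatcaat
Tarm1: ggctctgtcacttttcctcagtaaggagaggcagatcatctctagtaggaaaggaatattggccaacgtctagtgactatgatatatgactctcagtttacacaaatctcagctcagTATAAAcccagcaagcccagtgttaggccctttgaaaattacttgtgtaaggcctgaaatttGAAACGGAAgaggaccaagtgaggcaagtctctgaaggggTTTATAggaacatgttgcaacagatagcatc
Lif: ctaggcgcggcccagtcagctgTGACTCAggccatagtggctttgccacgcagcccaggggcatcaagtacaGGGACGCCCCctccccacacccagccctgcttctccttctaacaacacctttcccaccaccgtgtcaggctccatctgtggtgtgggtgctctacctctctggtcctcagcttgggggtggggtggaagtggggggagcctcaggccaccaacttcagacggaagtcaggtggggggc
Tnfrsf8: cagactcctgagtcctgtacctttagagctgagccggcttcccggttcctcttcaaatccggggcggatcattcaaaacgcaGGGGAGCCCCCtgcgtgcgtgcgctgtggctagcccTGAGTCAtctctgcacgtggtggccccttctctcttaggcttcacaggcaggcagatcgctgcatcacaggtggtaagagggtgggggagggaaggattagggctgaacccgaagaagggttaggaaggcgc

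Lif and Tnfrsf8 thus both pair kB with AP-1. As deposited, the treated library lay on different sides of the LPS model for them, at ratios of 0.905 and 1.19. Pilra and Tarm1, which both hold the ISRE core, likewise lay on different sides. The other members with the ISRE core, AW011738, B430306N03Rik, Edn1 and Gpr18, lay below both LPS model libraries as deposited, like Pilra. Tarm1 was thus the only one of them above. The counting intervals of Lif, Tnfrsf8, Tarm1, AW011738, B430306N03Rik and Gpr18 held 1. After median of ratios rescaling the log2 differences from the LPS model were 0.017 for Lif and 0.199 for Tnfrsf8, on the same side. Those of Pilra and Tarm1 stayed on different sides, at −0.11 and 0.29. Fpr2, whose window is not shown, also holds 2 motifs, TATA at 130 and GAS at 77 bases before the start. Slfn1, whose kB match starts 43 bases before the start, had no control read and was below both LPS model libraries.

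The base composition of the member windows was also measured. Their median was 6.5 CG dinucleotides per window, beside 13 for listed protein-coding genes and 7 for all promoters, and the members ran between 1 (Fpr1, Fpr2, Pilra and Serpinb2) and 40 (Ptpn14). Median GC content was 51.7% for members, 58.3% for listed genes and 52.7% for all promoters. No more than 3 CG dinucleotides were found in 8 member windows (30.8%), 17.6% of the listed and 31.4% of all promoters. The members' medians were nearer to those of all promoters than to those of the listed genes, without a test.

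The annotated locations of the products were varied. Of 32 members with a cellular component term, 13 carried a membrane term (40.6%, beside 44.8% of listed genes with a term), 4 an extracellular one (12.5%, beside 17.7%), 9 a nuclear one (28.1%, beside 31.3%) and 12 a cytoplasmic one (37.5%, beside 42.5%). In the genome the members were spread over 14 chromosomes and 1 scaffold, with 5 each on chromosomes 11 and 17. Apart from Fpr1 and Fpr2, the nearest pair of members, Lix1 and Fpr1, had starts 481268 bases apart.

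Some values are less certain for reasons of counting. The library kit was strand-specific, but no source used here says whether counting used the strand, and 10 members overlap a gene on the opposite strand, among them Pilra with Zcwpw1 and Rab15 with Fntb. Fpr2 overlaps Fpr3 and Serpinb2 overlaps Serpinb10 on the same strand. Fpr1, Fpr2, Gsta2, Slfn1, Pilra, Zfp811 and Csprs belong to families with similar copies, so reads may have been split between copies. Reads of Gpr18 and Zfp811, whose coordinates in the annotation used here differ from those in the table, and of B430306N03Rik are approximate.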

How the data were processed

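The deposited table, the only processed file used, gives log2 FPKM per library as made by the authors, and an exact 0 was read as 0 FPKM. Tools in the submitters' processing notes are HISAT2 2.1.0, Trimmomatic 0.32, DESeq2 and SAMtools 1.4, with build mm10. The study's methods define its differential genes by a p-value threshold, without saying whether this selected the listed genes, and the counter is not given in the sources used here. Of 1489 identifiers, 1487 are in GENCODE mouse release 21. Reads were recovered as FPKM times exon length and depth.

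Libraries were grouped by their labels. The main test was limma 3.58.1 (R 4.3.3) on log2(FPKM + 1) with a trend, over 3 groups and all 5 libraries, for 1053 genes that reached 1 FPKM in 2 libraries or in the treated library, with Benjamini-Hochberg adjustment. It was run on simulated data drawn from the LPS model levels, with known changes in the treated library only. The simulation held no difference between LPS model and control, so it did not check that contrast. Read ratios have exact (Clopper-Pearson) 95% intervals that cover counting error only. Other steps used pandas 2.3.3, numpy 2.4.6, scipy 1.17.1 and matplotlib 3.10.9 in Python 3.11.15. Alternatives were a pseudocount of 0.1, no filter, quantile normalization, median of ratios rescaling, a replicate block, limma-voom on recovered reads, leaving out each replicate and other limits of the rule.

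The members and gene lists were chosen with earlier results of these data known. Values in every library are given for the 15 members most abundant with LPS, the 6 with the highest and the 6 with the lowest ratio of compound 13 to LPS model, members at 0 FPKM in both control libraries with an LPS model mean of at least 5 FPKM, and the 3 genes nearest each limit inside and outside it, and promoters are shown for the 5 of these with the most distinct motifs (Fpr2, named for its place beside Fpr1, is not among them). Equal replicate numbers did not pair the libraries.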

Additional observations from a re-analysis of the deposited data

How the results depend on the processing

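All 34 members were called higher with LPS than in the control by limma under every alternative except quantile normalization, which called 33 (Dok7 was not called). For compound 13 against the LPS model, 1 member was called lower, 0 with a pseudocount of 0.1, no filter, quantile normalization, median of ratios rescaling or a replicate block, 0 to 2 when a replicate was left out, and 1 with limma-voom. The members' median log2 difference for LPS was 1.35, and 3.42 with a pseudocount of 0.1, 4.05 with limma-voom, 0.98 with the median of ratios and 0.91 with quantile normalization, and 1.32 to 1.41 without a replicate. That for compound 13 was −0.15, and −0.24, −0.25, −0.043 and 0.011 in the same order, so quantile normalization turned its direction. With these 2 rescalings 16 and 12 members were below both LPS model libraries and 10 and 14 above. Of all tested genes 31.2% and 30.7% were then below both, and 51.8% and 47.0% above. Without a replicate the fitted log2 difference was negative for 27 to 28 members and positive for 6 to 7. The rule gave 10 members at a control limit of 0.1 FPKM, 14 at an LPS model limit of 2 FPKM, 53 with no condition on the treated library, and 36 to 45 without a replicate.

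Over all tested genes, 766 were called higher and 246 lower for LPS, and 408 and 408 with the median of ratios, and 463 and 345 with quantile normalization. For compound 13, 4 were called higher and 76 lower, and 0 and 35 with a pseudocount of 0.1, 2 and 83 with no filter, 0 and 0 with the median of ratios, 4 and 4 with quantile normalization, 14 and 289 with limma-voom, 0 and 52 with the replicate block, and 0 to 14 and 17 to 125 without a replicate. With 5 libraries and 1 of them treated, small differences of low genes cannot be read, and the cause of these shifts was not tested. Replicate numbers 1 and 2 did not deviate together (r = −0.02 over 1046 genes), so the replicate block is given as an alternative only. Under it 34 members were called higher for LPS and 0 lower for compound 13.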
